A study of Mus musculus with 9 samples.

Results

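Wild type mouse muscle given DKK1 was compared with wild type muscle given PBS, the buffer control. This comparison used 2 of the 9 RNA sequencing libraries of the series, 1 for each treatment, both from set C (the set letter is part of each table's name). Genes entered it with 100 or more counts in the higher of the 2 libraries, which kept 11489 of the 24421 genes in the tables. With 1 library per side no replicate check was possible, so genes are described by size: a ratio of CPM (library-scaled counts, here with the TMM method) of 2 or more in either direction. This is called the size rule here, and it gives no p-value. The 95% intervals given with ratios are exact binomial intervals that cover counting error only.

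Of the other libraries, 3 from muscle were set beside the pair. Another 2 from muscle, both of set B, came from tumour groups, 1 labelled PBS and 1 labelled MDC (letters the labels leave unexplained). These entered only the TMM scaling, the edgeR fits, the range of totals and the levels given for the erythroid list and Cish. The remaining 2 libraries are from kidney. The 3 set beside the pair were a second wild type PBS library (library 1, set B) and a pair labelled beta-arrestin knockout. The labelled knockout pair is also of set C, with 1 library given DKK1 and 1 given PBS. The reference library is called PBS library 2. The labels give genotype and treatment alone: strain, age, dose, route and time are not stated, nor which muscle was taken, which beta-arrestin gene was deleted, or whether animals were pooled. They also do not say whether the 2 wild type PBS libraries came from separate animals. Arrb1 and Arrb2, the beta-arrestin genes, were not reduced in that pair, although counts summed over a gene do not show the loss of an exon, and the pair is called "labelled knockout" throughout.

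DKK1 is a secreted inhibitor of Wnt signalling. Its targets are the co-receptors LRP5 and LRP6, which it draws from the cell surface together with the Kremen proteins, so that Wnt and Frizzled no longer stabilise beta-catenin. CKAP4 is another DKK1 receptor. In adult muscle, Wnt signalling is known for its part in satellite cells, fibrosis and the neuromuscular junction. The series title concerns uptake of LRP6 caused by Dkk1 in cachexia, the wasting that accompanies cancer. The wild type DKK1 library is from muscle given DKK1 and is not labelled as tumour.

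Total counts were 30415988 in the wild type DKK1 library and 21358854 in PBS library 2, within the range of 21358854 to 32607835 over the 7 muscle libraries. Rn45s, the ribosomal RNA precursor, held 8.29% of the counts of PBS library 2 and 0.622% of those of the DKK1 library. The TMM factors were 1.05 and 1.26 in that order. Across 13735 genes the log2 CPM of the pair correlated at r = 0.974, where the 2 wild type PBS libraries correlated at 0.889 (a description across genes, which are not independent). A count of 0 allows up to 3 counts, or 0.0781 CPM in the DKK1 library and 0.133 CPM in PBS library 2. Skeletal muscle markers were abundant in both: all 14 fibre markers listed had 100 or more counts, with summed levels of 98084 CPM (DKK1) and 135613 CPM (PBS library 2). Neutrophil and lymphocyte markers had no gene above that minimum.

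With DKK1, 361 genes were 2-fold or more higher (3.14% of 11489) and 131 were 2-fold or more lower (1.14%), 4.28% in all, with a median log2 ratio over all genes of 0.01. Scaling by total counts alone gave 812 higher and 84 lower and moved the median to 0.27, a shift of 0.26. Ratios near the threshold were common: 76 genes were 2 to 2.1-fold higher and 97 were 1.9 to 2-fold higher, and on the lower side these counts were 16 and 23. Msc lay just inside the rule at 2.0005-fold higher and Sox17 just outside at 1.9986-fold. On the lower side, Acer2 at 2.002-fold lay inside and Ryr1 at 1.990-fold outside. Over 5 classes of gene length of equal size, the median log2 ratio ran from 0.00 to 0.03.

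**Figure D1:**
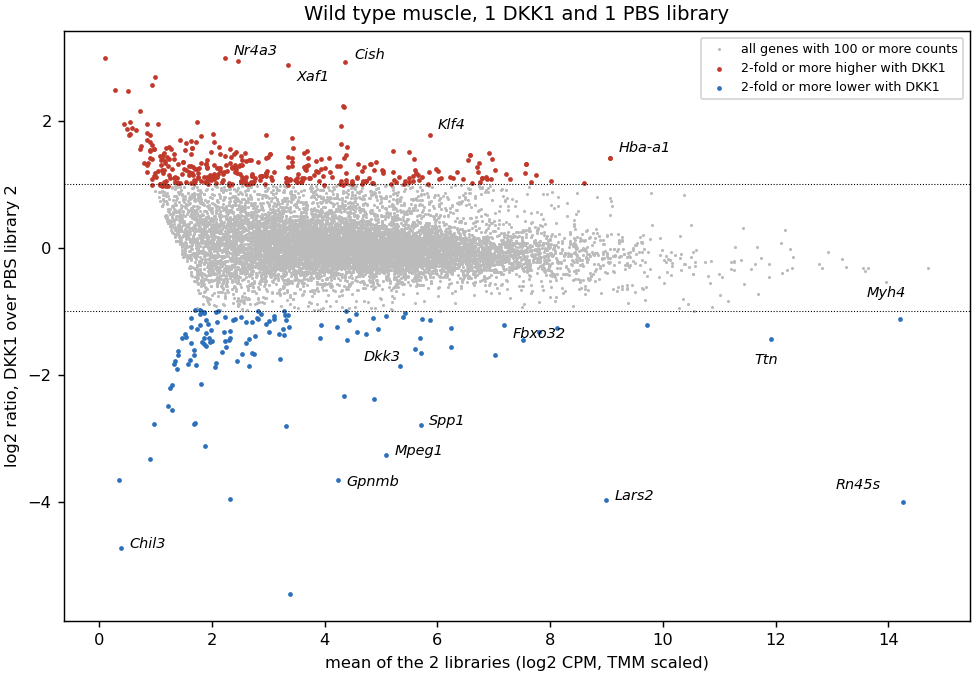
Each point is a gene with 100 or more counts in the higher library. The x axis is the mean log2 CPM of the wild type DKK1 library and PBS library 2, the y axis is the log2 ratio of DKK1 to PBS, red and blue mark the 361 genes higher and 131 lower by 2-fold or more, and dotted lines mark 2-fold. Lower genes reach further from 0 than higher ones, with Rn45s and Lars2 at high abundance.

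edgeR's quasi-likelihood test, which set the DKK1 library against both wild type PBS libraries, called 0 of 15482 genes (0.0%), with a smallest Benjamini-Hochberg adjusted p of 1. At an unadjusted p under 0.05 there were 125 genes higher and 81 lower. limma-voom called 0, and DESeq2 called 0 higher and 4 lower (Rn45s, Lars2, the enolase copy Eno1b and the class II pseudogene H2-Ea-ps). The spread in these fits rests on the wild type PBS pair, which has 1 residual degree of freedom and comes from different sets. No gene below is therefore called by edgeR in that test, and "higher" and "lower" describe libraries.

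The DKK1 receptor genes given here were all within 2-fold between the 2 libraries. Lrp6, the main DKK1 receptor (chr6:134446476-134566965, mm10), was at 62.3 CPM with DKK1 and 60.6 CPM in PBS library 2, beside 34.1 CPM in wild type PBS library 1. Its ratio of 1.03 had a counting interval of 0.962 to 1.10. Lrp5, the sister co-receptor, was at 42.1 and 32.6 CPM (1.29-fold, 1.18 to 1.41), with library 1 at 5.95 CPM. Kremen1, which forms a complex with DKK1 and LRP6, was at 92.4 and 104 CPM, and Ckap4 was at 24.7 and 22.2 CPM. The beta-arrestins, adaptors of receptor uptake, also differed little, with Arrb1 (beta-arrestin-1) at 22.5 and 20.7 CPM and a ratio of 1.09 (0.971 to 1.22). The labelled knockout pair had 28.8 (DKK1) and 20.5 CPM (PBS) of it. For Arrb2 (beta-arrestin-2) the wild type levels were 8.46 and 8.01 CPM, and those of the labelled knockout pair 8.14 and 9.60 CPM.

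Dkk1 itself had 0 counts in all 5 libraries. This count bears on the muscle's own transcript and not on the DKK1 given, whose form the labels do not state. Dkk3, a divergent family member that does not act like DKK1 on LRP6, was at 31.5 CPM with DKK1, 84.7 CPM in PBS library 2 and 156 CPM in library 1. It was 2.69-fold lower than in library 2 (2.50 to 2.89), and the DKK1 library was the lowest of the 5, since the labelled knockout libraries were at 67.2 (DKK1) and 75.3 CPM (PBS). Of 12 genes of the DKK, LRP and arrestin list above the count minimum, Dkk3 was the only one past the size rule (0 higher, 1 lower), with a median log2 ratio of 0.10 beside 0.01 over all genes. Dkk2 was at 3.83 and 2.94 CPM, with an interval of its ratio that included 1 (0.969 to 1.77).

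Among Wnt ligands, secretion factors and Frizzled receptors, 3 of 25 genes were higher and 0 lower (median 0.28). Sfrp5, a secreted protein that binds Wnt ligands, was at 19.5 CPM with DKK1, 5.83 CPM in PBS library 2 and 1.01 CPM in library 1, a 3.34-fold difference from library 2 (2.77 to 4.05). It was also higher with DKK1 in the labelled knockout pair, at 6.91 against 3.50 CPM, just under 2-fold. The receptor gene Fzd6 was at 7.47 against 2.45 CPM, but library 1 was level with DKK1 at 7.34 CPM. Fzd3 was at 3.44 against 1.25 CPM, with 0 counts in library 1.

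The intracellular core of the pathway did not differ by size. Of 24 genes of the beta-catenin destruction complex and its nuclear partners, 0 were higher and 0 lower (median 0.01, with 12 above 0 and 12 below). Ctnnb1, which encodes beta-catenin, was at 307 and 262 CPM. Among Wnt target and feedback genes, 4 of 22 were higher and 1 lower (median 0.11). Axin2, the most widely used readout of beta-catenin activity, was at 10.2 CPM with DKK1 and 8.14 CPM in PBS library 2, a ratio of 1.25 (1.04 to 1.5), and at 4.20 CPM in library 1. The 4 higher genes were the growth factor Fgf18 (2.92 against 0.756 CPM), the cyclin Ccnd2 (49.4 against 21.8 CPM), the homeobox gene Msx1 (9.69 against 4.27 CPM) and the feedback inhibitor Nkd1 (6.41 against 3.07 CPM). All 4 were also 2-fold or more above library 1, as were 280 (77.6%) of all 361 genes higher against PBS library 2. Cyr61, a matricellular gene, was lower at 39.1 against 86.1 CPM, with library 1 between them at 46.3 CPM. The Dishevelled-binding antagonist Dact2, outside these lists, was at 3.98 against 0.979 CPM, with library 1 at 2.49 CPM.

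Among named genes with the highest ratios were an orphan nuclear receptor and a cytokine feedback gene. Nr4a3 encodes a nuclear receptor of the NR4A family, which is induced rapidly by exercise and by cyclic AMP (chr4:48045153-48086447). It was at 13.2 CPM with DKK1, 1.60 CPM in PBS library 2 and 0.923 CPM in library 1, and at 2.63 (DKK1) and 3.05 CPM (PBS) in the labelled knockout pair. The DKK1 library stood above the other 4, and its ratio to library 2 was 8.23 (5.86 to 11.9). Its relative Nr4a2 was at 5.78 against 2.27 CPM (2.55-fold, 1.87 to 3.53), with the other 3 libraries from 0.369 to 1.02 CPM. Nr4a1, the third of the family and the most abundant in these libraries by CPM, was at 309 and 328 CPM.

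The promoter sequences of Nr4a3 and Nr4a2 are shown because these 2 relatives were both higher. The 250 bases before each start are from RefSeq (GRCm38.p6), 5′ to 3′ in the direction of the gene. The RefSeq start of Nr4a3 lies downstream of the start in the annotation used for the gene interval above, so the end of its window falls inside that interval, while for Nr4a2 both starts are the same. Nr4a3 is at chr4:48045055-48045304 on the plus strand and Nr4a2 at chr2:57124004-57124253 on the minus strand, and capitals mark TGACG, the core of the cyclic AMP response element, or CGTCA, its reverse complement.
Nr4a3: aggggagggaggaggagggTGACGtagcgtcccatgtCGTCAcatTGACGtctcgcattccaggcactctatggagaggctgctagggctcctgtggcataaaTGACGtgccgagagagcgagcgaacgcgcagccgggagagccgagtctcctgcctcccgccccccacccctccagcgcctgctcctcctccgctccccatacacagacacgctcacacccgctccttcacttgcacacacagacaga
Nr4a2: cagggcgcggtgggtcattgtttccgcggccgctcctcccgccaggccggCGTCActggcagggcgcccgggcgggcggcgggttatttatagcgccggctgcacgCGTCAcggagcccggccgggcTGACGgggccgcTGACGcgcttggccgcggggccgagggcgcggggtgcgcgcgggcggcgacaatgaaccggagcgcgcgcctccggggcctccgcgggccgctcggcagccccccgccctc
Each sequence holds 4 matches, between 231 and 147 bases before the start in Nr4a3 and between 200 and 111 in Nr4a2 (distance of the first base). Of 32851 mouse promoters of that length, 17.8% hold at least 1 match and 0.137% hold 4 or more. Among genes past the size rule, 46 (19%) of the 242 higher genes with a promoter entry and 22 (25.9%) of the 85 lower ones hold the motif. A gene was counted here if any of its promoter entries matches. The shares of all promoters count every entry on its own, so they are not the same measure. The motif was chosen after the values were seen, and a match is a description of letters and does not show binding.

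The immediate early genes went both ways. Of 35 measured, 3 were higher (Nr4a3, Klf4 and Nr4a2) and 4 lower (Fos, Fosb, Cyr61 and Egr1), with a median of -0.06 that became 0.20 under total-count scaling. Against library 1, 13 of 35 were higher and 1 lower (median 0.73). Klf4, a zinc-finger factor of quiescent endothelium and differentiated cells, was at 107 CPM with DKK1, 31.3 CPM in PBS library 2 and 10.5 CPM in library 1, 3.44-fold above library 2 (3.17 to 3.73). In the labelled knockout pair it was at 41.1 (DKK1) against 20.9 CPM (PBS). Fos, a subunit of the AP-1 factor, was at 21.2 CPM with DKK1, 77.3 CPM in PBS library 2 and 33.6 CPM in library 1, 3.65-fold lower than in library 2 (3.36 to 3.97). In the labelled knockout pair the order was the other way, 79.3 CPM (DKK1) against 29.8 CPM (PBS). Egr1 was at 35.8 against 77.7 CPM in wild type and 70.6 against 32.4 CPM in the labelled knockout pair. Fosb was at 4.11 against 10.9 CPM, while Jun, another AP-1 subunit, was at 199 and 218 CPM.

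Cish, a SOCS-family inhibitor induced by STAT5 downstream of growth hormone and cytokine receptors (chr9:107296026-107302784), was at 56.9 CPM with DKK1, 7.43 CPM in PBS library 2 and 11.5 CPM in library 1. Its ratio to library 2 was 7.65 (6.54 to 9.01). The labelled knockout libraries were level with each other, at 32.9 (DKK1) and 33.8 CPM (PBS), above both wild type PBS libraries. Outside these libraries, Cish was at 101 CPM in the tumour PBS muscle library and at 8.18 CPM in the tumour MDC one. Among the wild type and labelled knockout libraries, Socs2, which restrains growth hormone signalling, was likewise highest with DKK1 in wild type. It was at 30.0, 12.2 and 10.2 CPM in wild type DKK1, PBS library 2 and library 1, and at 25.1 and 28.0 CPM in the labelled knockout pair. Socs3, induced by STAT3, was at 8.49 against 12.4 CPM (1.46-fold lower, 1.24 to 1.71). Of 24 IL-6/STAT3 and acute phase genes, 3 were higher (Cish, Socs2 and the lipopolysaccharide-binding Lbp) and 3 lower (the fibrinogen chain Fga, Timp1 and haptoglobin, Hp). The median was -0.21 and became 0.05 under total-count scaling. Against library 1, 12 of the 22 genes measured in that comparison were higher and 0 lower, with a median of 1.11 over the 24.

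IGF genes, which act beside the growth hormone axis, had 4 of 18 members higher and 0 lower (median 0.59). Igf1, the growth factor of muscle growth and repair, was at 51.5 CPM with DKK1, 25.6 CPM in PBS library 2 and 8.26 CPM in library 1, just over 2-fold above library 2. In the labelled knockout pair it was lower with DKK1, at 21.0 against 34.6 CPM. The binding protein genes Igfbp3 (49.6 against 21.4 CPM), Igfbp7 (171 against 80.4 CPM) and Igfbp6 (62.0 against 29.7 CPM) were the others. Igfbp6 was also past the size rule in the labelled knockout pair, at 57.5 against 23.1 CPM.

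Other named genes among the 15 highest were a mixed group. Rab6b, a small GTPase of Golgi traffic, was at 15.2 CPM with DKK1, 1.91 CPM in PBS library 2 and 0.369 CPM in library 1, but the labelled knockout libraries were as high, at 18.8 and 11.5 CPM. The interferon-induced Xaf1, which binds an inhibitor of apoptosis, was at 27.6, 3.69 and 9.60 CPM in that order (7.48-fold over library 2, 5.98 to 9.47). Kera, a proteoglycan of tendon and cornea, was at 4.97 CPM with DKK1 and 0.712 CPM in PBS library 2, but library 1 was as high as DKK1 at 4.89 CPM. Ptprr, a phosphatase of MAP kinases, was at 4.58 against 0.712 CPM. The rest were Fam167a, the monocarboxylate carrier Slc16a13, Slc35f1, the glial receptor Gpr37l1, Mettl7a2, the alpha-2C adrenergic receptor Adra2c, Bcl6b and the ribosomal protein gene Rpl30, at log2 ratios from 1.92 (Bcl6b) to 2.48 (Fam167a). Rpl30 was at 43.5 CPM with DKK1 and 9.34 CPM in PBS library 2, which was the low library of the 5, the other 3 being at 37.1 to 70.3 CPM. It was the only one of 66 ribosomal protein genes past the rule (median -0.04), and reads of such genes may be shared with pseudogene copies.

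**Figure D2:**
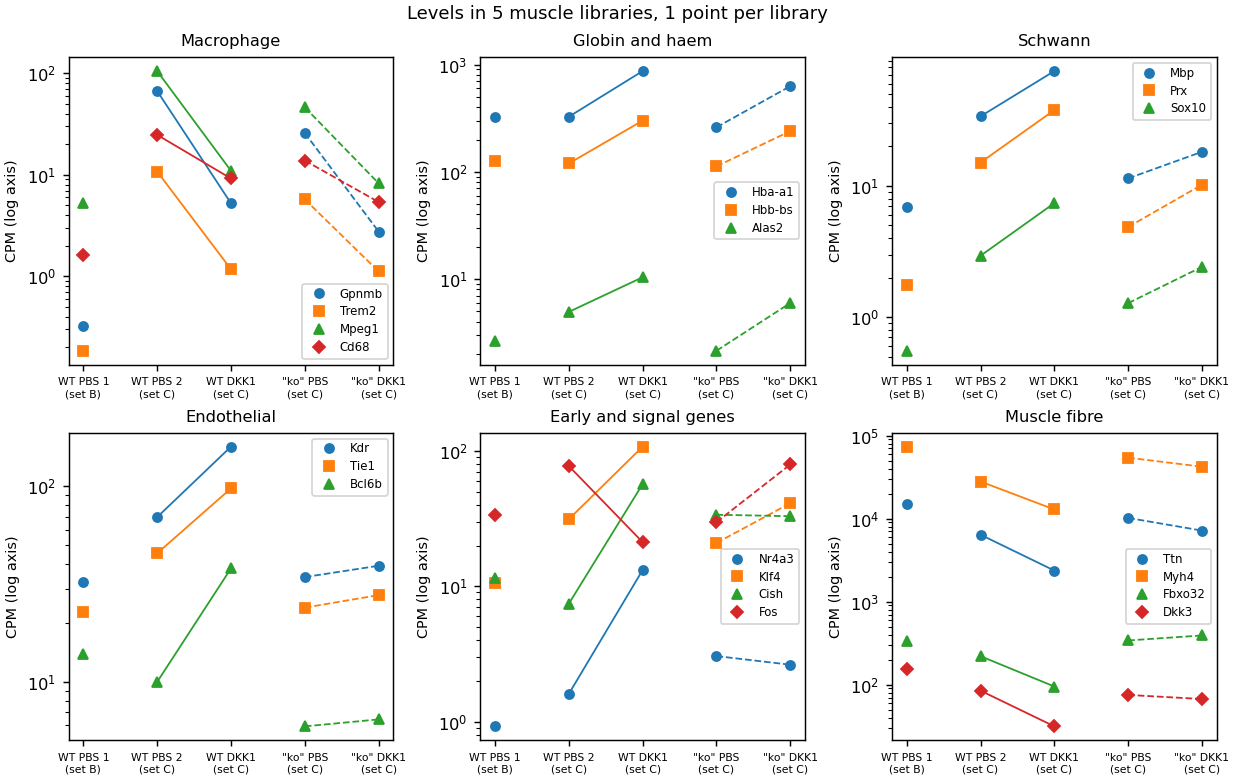
CPM on log axes in 5 muscle libraries, 1 point per gene and library, with solid lines joining wild type PBS library 2 to wild type DKK1 and dashed lines joining the pair labelled knockout ("ko"); wild type PBS library 1 of set B stands alone at the left. Gpnmb, Trem2, Mpeg1 and Cd68 are lower with DKK1 in both pairs but lowest in library 1, and Fos slopes in opposite directions in the 2 pairs.

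Macrophage and monocyte genes formed the main group lower with DKK1. Of 23 markers, 9 were lower and 0 higher (median log2 ratio -0.46). Fewer macrophages and less of these RNAs per cell cannot be told apart in bulk tissue, and this holds for every cell type below. The lower genes were Chil3, Gpnmb, Trem2, Ms4a7, Ccr2, Tyrobp, Cd68, Lyz2 and Fcer1g, while C1qa and Mrc1, also on the list, were near level or above, at 39.4 against 37.3 CPM and 28.9 against 23.8 CPM. Gpnmb, a lysosomal glycoprotein (chr6:49036546-49070929), was at 5.23 CPM with DKK1 and 66.9 CPM in PBS library 2, a 12.8-fold difference (11 to 14.9). It was at 2.76 (DKK1) and 25.8 CPM (PBS) in the labelled knockout pair. Wild type PBS library 1, however, had the lowest level of all at 0.323 CPM.

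Of the 23 markers 15 were below PBS library 2, by any amount, and 23 were above library 1. Trem2, a lipid receptor of macrophages, was at 1.17 CPM with DKK1, 10.8 CPM in PBS library 2 and 0.185 CPM in library 1, and at 1.11 against 5.73 CPM in the labelled knockout pair. Mpeg1, the pore-forming perforin-2 and not on the list, was at 10.9, 105 and 5.26 CPM, and at 8.24 against 46.2 CPM. Chil3, a chitinase-like product of alternatively activated macrophages, had 7 counts with DKK1 and 149 in PBS library 2, a 36.4-fold difference (17.2 to 92.0), and 0 counts in library 1. Cd68, the pan-macrophage lysosomal marker, was at 9.19, 24.7 and 1.61 CPM. Ccr2, the receptor of recruited monocytes, was at 3.23, 11.9 and 1.98 CPM. In each of these genes PBS library 2 was the highest and PBS library 1 the lowest of the 3 wild type libraries.

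The summed level of the macrophage list was 469 CPM with DKK1, 824 CPM in PBS library 2 and 129 CPM in library 1, with 324 (DKK1) and 445 CPM (PBS) in the labelled knockout pair. Against library 1 the list was higher with DKK1, with 19 of the 21 genes measured in that comparison higher, 1 lower and a median of 1.96 over the 23. The direction in wild type therefore depended on which PBS library served as the reference, and its relation to set letter was not tested. The labelled knockout pair, which shares no library with the wild type pair, had 9 of the 24 markers measured there lower and 2 higher (median -0.49 over the 23), and 7 were lower in both pairs.

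Other genes of immune cells were also highest in PBS library 2. Spp1, the secreted osteopontin, was at 19.8 CPM with DKK1, 137 CPM in PBS library 2 and 22 CPM in library 1, and at 3.59 (DKK1) against 31.6 CPM (PBS) in the labelled knockout pair. It was 6.93-fold lower than in library 2 (6.4 to 7.51), and differed little from library 1. Ctss, a lysosomal protease of antigen presentation, was at 12.8, 66.9 and 3.28 CPM, and Lgals3, a galactose-binding lectin, at 8.98, 45.5 and 9.5 CPM. Among complement genes 3 of 22 were lower and 0 higher (C3ar1, Itgb2 and C4b), with a median of -0.15, or 0.11 under total-count scaling. Against library 1 the complement list was higher instead, with 19 of 22 higher, 2 lower and a median of 1.85. In the labelled knockout pair 5 of 21 were higher and 1 lower (median 0.23 over the 22). C3ar1, the C3a receptor, was at 5.0 against 16.9 CPM in the wild type pair. Of 17 chemokine and receptor genes 3 were higher and 2 lower (median 0.25). The leukocyte receptor gene Ccr2 was among the lower, while the stromal and endothelial ligands Cxcl14 (223 against 100 CPM), Ccl21a (13.6 against 4.85 CPM) and Cx3cl1 (6.93 against 2.98 CPM) were higher. The peptide carrier Slc15a2, Ms4a6d and the protease Adam8 were also among the 15 lowest, at log2 ratios of -3.66, -2.75 and -2.56.

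Promoter sequences of 2 genes lower in both pairs, Trem2 and the nucleic acid sensor Tlr13, are shown for the letters GAGGAAG, a core bound by the macrophage factor PU.1, or the reverse complement CTTCCTC (capitals). They are from RefSeq (GRCm38.p6), with Trem2 at chr17:48346151-48346400 and Tlr13 at chrX:106143025-106143274, both on the plus strand. For Tlr13, too, the RefSeq start is downstream of that in the gene annotation.
Trem2: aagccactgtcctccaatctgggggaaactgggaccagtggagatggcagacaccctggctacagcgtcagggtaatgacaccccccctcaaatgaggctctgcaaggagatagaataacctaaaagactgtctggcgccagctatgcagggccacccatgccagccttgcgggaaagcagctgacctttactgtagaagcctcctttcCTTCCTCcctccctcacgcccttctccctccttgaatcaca
Tlr13: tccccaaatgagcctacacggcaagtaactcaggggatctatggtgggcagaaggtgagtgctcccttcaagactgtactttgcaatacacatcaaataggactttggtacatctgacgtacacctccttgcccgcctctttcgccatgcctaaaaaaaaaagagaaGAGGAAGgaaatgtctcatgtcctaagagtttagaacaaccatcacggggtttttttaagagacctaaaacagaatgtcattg
The match begins 41 bases before the start in Trem2 and 83 bases before it in Tlr13. Of the 23 genes lower in both pairs, 19 had a promoter entry and 5 of these (26.3%) hold the letters, beside 10.6% of all promoters. The share was 16.5% both among the 242 higher genes with an entry (40) and among the 85 lower ones (14). These gene shares count a gene if any of its promoter entries matches. The share of all promoters counts every entry on its own, so it is not the same measure. These 2 sequences were picked because they hold a match, and nothing was tested on them. Tlr13 was at 2.08 CPM with DKK1 and 7.83 CPM in PBS library 2.

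The globin genes and Alas2 were higher with DKK1 in wild type against each PBS library and in the labelled knockout pair. Of 8 erythroid markers 5 were higher and 0 lower by the size rule against PBS library 2 (median 1.20), and the other 3 were below 0. Against library 1, 5 were higher and 1 lower (median 1.12). In the labelled knockout pair 5 were higher and 0 lower (median 1.13), and 5 were higher in both pairs. Hba-a1, an alpha-globin chain, was at 870 CPM with DKK1, 326 CPM in PBS library 2 and 323 CPM in library 1, and at 629 (DKK1) against 260 CPM (PBS) in the labelled knockout pair. Both DKK1 libraries thus stood above the 3 PBS muscle libraries outside the tumour groups. The same held for the beta-globin Hbb-bs, at 300, 120 and 127 CPM, and at 240 against 112 CPM. Alas2, the erythroid enzyme that starts haem synthesis and the only one of the 5 that is not a globin, was at 10.4, 4.94 and 2.63 CPM, and at 5.98 against 2.14 CPM. The muscle libraries of the tumour groups, not labelled DKK1, stood higher still. The summed level of the erythroid list was 3624 CPM in tumour PBS and 6549 CPM in tumour MDC. It was 2460 CPM in the wild type and 2025 CPM in the labelled knockout DKK1 library. Globin genes have near-identical copies: Hba-a1 and Hba-a2 had 33388 and 33487 counts with DKK1, so the 4 globins are not independent genes. The membrane marker Slc4a1 had 10 counts with DKK1 and 1 in PBS library 2, and how much blood each piece of tissue held is not given.

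The Hbb-bs promoter is shown because beta-globin promoters hold a CACCC box, the erythroid element written here as CCACACCC (capitals; RefSeq, GRCm38.p6, chr7:103827929-103828178, minus strand).
Hbb-bs: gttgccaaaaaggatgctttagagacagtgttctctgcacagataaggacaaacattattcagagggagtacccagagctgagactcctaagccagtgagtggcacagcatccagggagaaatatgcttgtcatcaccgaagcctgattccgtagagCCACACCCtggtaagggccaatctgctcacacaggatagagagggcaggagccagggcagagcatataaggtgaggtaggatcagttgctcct
The element begins 93 bases before the RefSeq start, which for this gene is downstream of that in the gene annotation, and 3.20% of all promoters of this length hold it.

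Schwann cell and nerve genes were higher for 7 of 12 markers and lower for 0 (median 1.13). Prx, which stabilises the myelin sheath, was at 37.9 CPM with DKK1, 15.1 CPM in PBS library 2 and 1.75 CPM in library 1, and at 10.2 (DKK1) against 4.86 CPM (PBS) in the labelled knockout pair. It was 2.51-fold above library 2 (2.23 to 2.84), but both set C wild type libraries stood above the other 3. Mbp, a protein of compact myelin, was at 75.1 against 33.9 CPM in wild type. Sox10, the lineage factor of Schwann cells, was at 7.40 against 2.94 CPM. Pmp22 and the cadherin gene Cdh19 were also past the rule. Against library 1 all 12 were higher (median 3.48), and in the labelled knockout pair 1 of the 6 with 100 or more counts there was higher (median 0.70 over the 12). The summed level of the list ran from 56.8 CPM (wild type PBS library 1) through 100 and 146 CPM (labelled knockout PBS and DKK1) to 262 and 576 CPM (wild type PBS library 2 and DKK1).

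Endothelial genes were higher by smaller amounts, with 3 of 19 past the size rule, 0 lower and 17 of 19 above 0 (median 0.90). Kdr, the main VEGF receptor, was at 159 CPM with DKK1, 69.6 CPM in PBS library 2 and 32.3 CPM in library 1, and at 39.3 against 34.4 CPM in the labelled knockout pair. The wild type DKK1 library was the highest of the 5, as it was for the list's summed level (3857 CPM, against 2350 CPM in PBS library 2 and 1114 to 1348 CPM in the other 3). Tie1, an angiopoietin pathway receptor, was at 97.6 against 45.5 CPM and the sialomucin Emcn at 36.7 against 17.7 CPM. Bcl6b, a transcriptional repressor found in endothelium, was at 38.1 against 10.01 CPM, 3.80-fold (3.30 to 4.40), beside 5.93 to 13.8 CPM in the other 3 libraries. In the hypoxia and angiogenesis list 4 of 25 genes were higher and 0 lower (median 0.58), with the Notch target Hey1 at 27.3 against 10.2 CPM and the lymphatic growth factor Vegfc at 5.78 against 2.27 CPM beside Kdr and Tie1. Of 14 pericyte and smooth muscle genes 2 were higher and 0 lower (median 0.65), with Rgs5, a regulator of G-protein signalling in pericytes, at 170 against 67.1 CPM. Adipocyte markers had 0 of 17 higher and 1 lower (median -0.39), the lipid droplet gene Cidea at 5.96 against 15.6 CPM. Against library 1 these markers were higher instead, with 14 of 17 higher and 0 lower (median 2.62).

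Fibroblast markers were above 0 for 18 of 18 genes, with 5 past the size rule (median 0.88, and 0.73 in the labelled knockout pair). Smoc2, a secreted calcium-binding matrix protein, was at 203 CPM with DKK1, 76.6 CPM in PBS library 2 and 146 CPM in library 1. Lum, a collagen-binding proteoglycan, was at 87.2 against 38.1 CPM, and Dcn, another of that family, at 556 against 273 CPM. Among 23 collagen chains 2 were higher and 0 lower (median 0.52), with the basement membrane chain Col15a1 at 75.9 against 26.5 CPM. The summed level of the fibroblast list was 3932 CPM with DKK1, 2220 CPM in PBS library 2 and 1262 CPM in library 1, and 2118 (DKK1) against 1134 CPM (PBS) in the labelled knockout pair. Both pairs were therefore higher with DKK1, though the labelled knockout DKK1 library did not exceed wild type PBS library 2.

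Of 53 matrix proteins and remodelling enzymes, 6 were higher and 3 lower (median 0.46). Mmp2, a gelatinase, was at 97.6 against 42.0 CPM in wild type and 49.1 against 24.4 CPM in the labelled knockout pair, past the size rule in both. Fmod, a proteoglycan of tendon and matrix, was at 34.2 against 11 CPM, but library 1 was at 30.3 CPM. The lower genes were Spp1, the protease inhibitor Timp1 (1.59 against 5.56 CPM) and Adam12, a metalloprotease of regenerating muscle and fibrogenic cells (2.29 against 6.23 CPM). Among TGF-beta, myostatin and BMP genes 4 of 45 were higher and 2 lower (median 0.42). The inhibitory Smad7 was at 23.1 against 8.85 CPM, the BMP target Id1 at 114 against 53.2 CPM and Fst, which encodes the myostatin antagonist follistatin, at 5.89 against 2.67 CPM. Ltbp2, which encodes a matrix protein of the latent TGF-beta-binding family, was lower at 1.72 against 4.67 CPM. Mstn itself was at 67.7 and 97.9 CPM. Of 7 tendon and cartilage genes, Kera, Fmod and Tnmd were higher and the tendon factor Scx was lower (2.27 against 5.83 CPM).

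**Figure D3:**
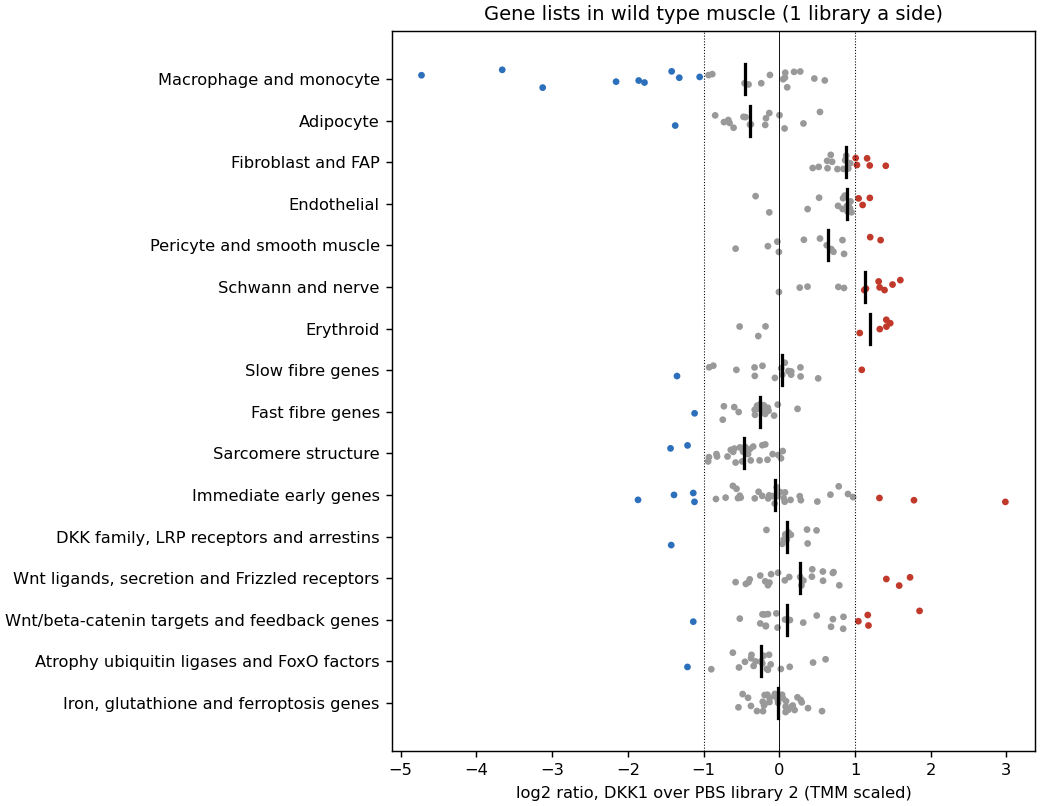
Log2 ratio of wild type DKK1 to PBS library 2 for every gene with 100 or more counts in 16 of the lists; each point is a gene, the black bar is the list's median, dotted lines mark 2-fold, and red and blue mark genes past it. Macrophage genes reach furthest to the left, the Schwann and erythroid medians lie beyond 2-fold (1.13 and 1.20), and the iron, glutathione and ferroptosis list lies within 2-fold throughout.

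Genes of the muscle fibre itself were mostly within 2-fold. Of 28 sarcomere structure genes 2 were lower and 0 higher (median -0.46). Ttn, which encodes the giant spring protein titin (chr2:76703980-76982547), was at 2366 CPM with DKK1, 6399 CPM in PBS library 2 and 14897 CPM in library 1, and at 7170 (DKK1) against 10189 CPM (PBS) in the labelled knockout pair. The wild type DKK1 library was the lowest of the 5, 2.70-fold under library 2. The fast myosin heavy chain Myh4 followed the same order, at 12882, 27951 and 73516 CPM, and at 42151 against 54167 CPM. It was the 1 of 19 fast fibre genes past the rule (median -0.25, smaller in size than the shift of 0.26 that total-count scaling brings).

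Slow fibre genes had a median of 0.04, with the light chain gene Myl3 higher and Sln, an inhibitor of the calcium pump, lower. Myh7, the slow myosin heavy chain, was at 140 CPM with DKK1 and 138 CPM in PBS library 2, but at 2.26 CPM in library 1. In the labelled knockout pair it was at 2097 (DKK1) against 8.37 CPM (PBS), and 16 of 19 slow fibre genes were higher there (median 3.0), where 1 of 19 was higher in the wild type pair. The stretch-responsive genes Ankrd1 (28.0 against 84.4 CPM), Xirp1 (181 against 433 CPM) and Flnc (556 against 1288 CPM) were lower with DKK1 than in PBS library 2, and the first was at 6.18 CPM in library 1. Respiratory chain and ATP synthase genes had 0 of 79 past the rule (median 0.13, against -0.80 with library 1 as the reference).

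The atrophy ligases and FoxO factors, which mark muscle wasting, had 1 of 21 genes past the size rule, and that gene was lower. Their median was -0.24, with 17 of 21 below 0, but it became 0.02 under total-count scaling and 0.23 against library 1. Fbxo32, the muscle ubiquitin ligase atrogin-1 (chr15:58175879-58214932), was at 95.1 CPM with DKK1, 220 CPM in PBS library 2 and 340 CPM in library 1, 2.32-fold lower than in library 2 (2.22 to 2.42). The labelled knockout libraries were at 391.6 (DKK1) and 341 CPM (PBS), so that the wild type DKK1 library was the lowest of the 5. Trim63, the ligase MuRF1 that is usually induced with it, was at 123 and 121 CPM, a ratio of 1.01 (0.968 to 1.06), and at 243 CPM in library 1. Foxo1, the factor that drives both ligases, was at 61.1 and 55.6 CPM. Of 25 neuromuscular junction and denervation genes 3 were lower and 0 higher (Runx1, Sln and Ostn; median -0.31, but 0.45 against library 1), with the denervation-induced factor Runx1 at 3.75 against 10.3 CPM.

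Iron, glutathione and ferroptosis genes, a pathway of lipid peroxide death, had 0 of 32 members past the size rule in either direction (median -0.02, or 0.24 under total-count scaling and 0.15 against library 1). Ferritin heavy chain Fth1 was at 1050 and 1201 CPM, the lipid peroxidase Gpx4 at 353 and 333 CPM, and ferritin light chain Ftl1 at 376 and 501 CPM. Slc7a11, the cystine carrier that feeds glutathione synthesis, had 53 counts with DKK1, 4 in PBS library 2 and 0 in library 1. It was below the count minimum, and its ratio of 7.76 had a counting interval of 2.86 to 29.5. Of 17 metallothionein and zinc transporter genes, Mt1 (23.4 against 49.5 CPM) and Mt2 (12 against 28.4 CPM) were lower and the zinc importer Slc39a10 was higher (19.7 against 8.01 CPM). Library 1 had less of both metallothioneins than the DKK1 library, at 19.4 and 5.21 CPM.

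Of 53 interferon-induced genes 4 were higher and 0 lower (Xaf1, Ifit1, Ifi47 and Ifi44), and 46 of 53 were above 0 (median 0.42). Against library 1 the list was lower instead, with a median of -0.40 over the 53, and 5 higher and 21 lower of the 55 measured in that comparison. Ifi47, a GTPase of the gamma-interferon response, was at 5.81 CPM with DKK1, 2.36 CPM in PBS library 2 and 9.32 CPM in library 1. Of 31 heat shock and chaperone genes 2 were higher and 0 lower (median -0.03). The stress-induced chaperone Hspa1b was at 371 CPM with DKK1, 179 CPM in PBS library 2 and 3.51 CPM in library 1. Liver, kidney and pancreas markers had 3 genes above the count minimum, of which the liver antiprotease Serpina1a was lower (2.34 against 6.63 CPM).

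Genes of small structured RNAs, with Lars2 and Malat1, were lower for 5 of 6 members measured and higher for 0 (median -3.37). Rn45s was at 4931 CPM with DKK1 and 78778 CPM in PBS library 2, 16-fold lower, with library 1 at 24572 CPM. Rmrp, the RNA of RNase MRP, was at 1.20 against 19.7 CPM and Rpph1, the RNA of RNase P, at 1.15 against 8.27 CPM. Lars2, the mitochondrial leucyl-tRNA synthetase gene, moved with them at 128 against 2021 CPM, although it is a coding gene. Malat1, a nuclear long RNA, was at 111 against 304 CPM, and was lower in the labelled knockout pair as well, at 300 against 619 CPM. In that pair the other 4 were higher with DKK1, with Rn45s at 10106 against 3691 CPM. The lowest ratio of all was that of BC002163, outside the naming rule and picked out for its value, at 1.51 CPM with DKK1, 69.1 CPM in PBS library 2 and 1.24 to 6.04 CPM in the other 3. What part RNA makeup has in the other ratios was not tested. Leaving Rn45s, Rmrp, Rpph1 and Lars2 out before scaling gave 361 genes higher and 127 lower.

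The labelled knockout pair gives the same treatment in libraries with no overlap with the wild type pair. There, 261 of 10838 genes (2.41%) were higher with DKK1 and 71 (0.655%) lower. Past the rule in both pairs were 38 genes higher (0.356% of 10662 measured in both) and 23 lower (0.216%). The 38 were 10.5% of the genes higher in wild type and 14.6% of those in the labelled knockout pair, and the 23 were 17.6% and 32.4% of the lower genes. The 38 include 6 globin entries (Hbb-b1 and Hbb-b2 repeat the counts of Hbb-bs and Hbb-bt), Alas2, Prx, Mmp2, Fmod, Igfbp6, Lbp, Clec3b and the Dishevelled-binding Dact1. The 23 include Gpnmb, Trem2, Mpeg1, Ctss, Spp1, Lgals3, C3ar1, Ccr2 and Malat1, with 7 genes of the macrophage list in all. By sign alone, 276 of the 361 higher genes (76.5%) and 90 of the 131 lower genes (68.7%) had the same direction in the labelled knockout pair. Over all 11489 genes of the wild type comparison, 5992 were above 0 in that pair and 5497 below. In opposite directions past the rule were 2 genes higher and 10 lower in wild type.

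**Figure D4:**
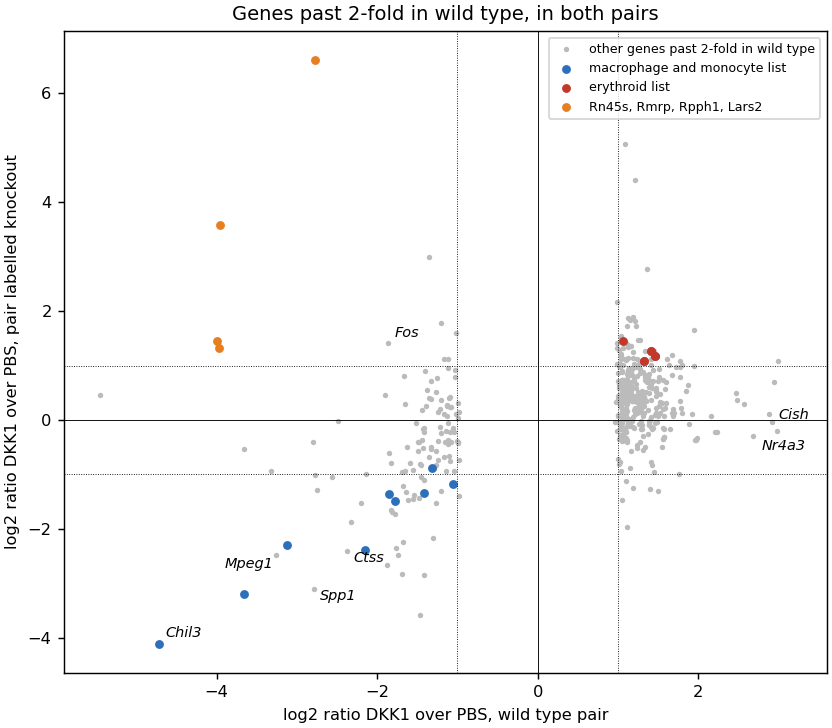
Each point is a gene past 2-fold in wild type; the x axis is its log2 ratio of DKK1 to PBS library 2 and the y axis its log2 ratio in the pair labelled knockout, with dotted lines at 2-fold. Macrophage genes (blue) lie low in both pairs, erythroid genes (red) lie beyond 2-fold in both, Rn45s, Rmrp, Rpph1 and Lars2 (orange) have opposite signs, and Cish and Nr4a3 lie near 0 on the y axis.

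The difference between the 2 pairs was tested gene by gene. edgeR's quasi-likelihood interaction test, which takes both PBS libraries as the wild type control, called 0 of 15482 genes (0.0%). Its smallest Benjamini-Hochberg adjusted p was 0.826, for Rpph1, and 9 genes above and 35 below had an unadjusted p under 0.05. DESeq2 called 3 (Lars2, Rmrp and Rpph1) and limma-voom 0. The log2 ratios in wild type and in the labelled knockout pair were 2.99 and -0.21 for Nr4a3, 2.92 and -0.04 for Cish, and 1.92 and 0.12 for Bcl6b.

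A further fit left out wild type PBS library 1 and took DKK1 as 1 effect shared by both pairs. This fit was added after the values were seen, on libraries that the size rule had already used. It assumes the same effect in both genotypes, and its 1 residual degree of freedom is the disagreement between the pairs. Gpnmb, Spp1, Hba-a1 and Mmp2, given below, were already past the size rule in both pairs, which favours small p-values here. The calls are therefore no independent support for the ratios above. edgeR's quasi-likelihood test then called 118 genes higher (0.764% of 15444) and 54 lower (0.35%). Of the macrophage list 9 of 29 genes tested fell and 0 rose, of the erythroid list 5 of 11 rose and 0 fell, and of the fibroblast list 9 of 18 rose and 0 fell. The log2 ratio of DKK1 to PBS was -3.48 for Gpnmb (adjusted p = 1.37e-05), -2.96 for Spp1 (adjusted p = 1.37e-05), 1.33 for Hba-a1 (adjusted p = 0.00157) and 1.10 for Mmp2 (adjusted p = 0.00814). Myelin genes Prx and Mbp were called higher, and Ttn and Myh4 were called lower. Nr4a3, Cish, Kdr and Fbxo32 were not called. Without PBS library 2 in place of library 1, the same fit called 9 genes higher (0.0584% of 15417) and 0 lower (0.0%), and 8 of the 9 were slow fibre genes, with a log2 ratio of 7.01 for Myh7 (adjusted p = 0.0022). None of the macrophage, erythroid or fibroblast genes were among those 9, so the calls depend on which wild type PBS library is kept. With library 1 the wild type pair spans sets B and C, and set and DKK1 cannot be told apart there.

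Against wild type PBS library 1, which shares the DKK1 library with the main comparison, far more genes passed the size rule: 2450 of 11600 were higher (21.1%) and 1312 lower (11.3%). Library 1 is of set B, and set and treatment cannot be told apart in that contrast. Of the 361 higher genes, 280 were also 2-fold or more above library 1 (2.45% of 11443 genes measured against both) and 13 were 2-fold or more below it. Of the 131 lower genes, 31 were lower against both (0.271%), and 30 were higher against library 1. Those lower against both, without the RNA genes, included Ttn, Myh4, Fbxo32, Dkk3, Eno1b, Scx, the neuronal trafficking gene Atcay, Lrrcc1, the ubiquitin ligase Neurl3 and the muscle Kelch gene Klhl38. None of the macrophage list was among them. The DKK1 library thus lay between the 2 wild type PBS libraries for Gpnmb, Trem2, Mpeg1, Cd68 and Ccr2, and outside their range for Hba-a1, Prx, Kdr, Ttn, Fbxo32, Nr4a3 and Cish.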

How the data were processed

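RNA was measured in 9 mouse libraries, of which 7 are muscle. For each library the authors deposited raw counts by gene symbol and, in another column, RPKM, used here only for a check (RPKM recomputed from the counts lay within 0.0005%). Per the submitters' processing notes, reads were aligned with HISAT2 2.1.0 to mm10. Not given in the sources used here are the counter, annotation, strand setting and handling of multi-mapping reads, so antisense and overlapping genes cannot be separated.

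Counts were scaled with TMM over the 7 muscle libraries, and log2 ratios had a prior count of 2 (edgeR 4.0.16, R 4.3.3). edgeR's quasi-likelihood test was run on 15482 genes (filterByExpr, minimum count 10) with Benjamini-Hochberg adjustment. Only the wild type PBS pair gives it a spread (biological coefficient of variation 0.498, prior degrees of freedom 15.2), which is taken to hold for single libraries too, and p-values measure only the spread between these samples. Leaving out 1 of these libraries needed DKK1 as an effect shared by both genotypes. DESeq2 1.42.0 and limma 3.58.1 were alternatives. The scripts were tested on simulated data. Lists were described by counts and medians over members with 100 or more counts. Of 57 lists, 25 had 3 members or 20% past the size rule, both directions together, or were chosen by name. Further lists are given for context. Gene positions are from the GRCm38 annotation, and promoters from RefSeq.

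Named were the 15 highest and 15 lowest genes by the size rule (leaving out predicted genes, RIKEN clones, pseudogenes and small RNAs), up to 3 per list and direction, the 10 highest and lowest against both wild type PBS libraries, and a panel of pathway genes. Some genes that meet the rule are not reported here. Picked out later for their values were others, such as Socs3, Ctss, Lgals3, Prx, Sox10, Mbp, C1qa, Mrc1, Igf1, Myh4, Myh7, Ankrd1, Nkd1, Egr1, Rgs5, Cidea, Col15a1, Hspa1b, Tlr13, Klhl38 and the genes at the threshold. The members and lists were chosen with earlier results of these data known.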

Additional observations from a re-analysis of the deposited data

Results flagged for a closer look

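Some genes were past the size rule in opposite directions in the wild type pair and the labelled knockout pair, each with 1 library per side. The values below are the log2 ratio of DKK1 to PBS in wild type minus that in the labelled knockout pair. Higher in wild type and lower in the labelled knockout pair were the predicted gene Gm4841 (2.45) and the urinary protein gene Mup10 (2.80).

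Lower in wild type and higher in the labelled knockout pair were the immediate early genes Fos (-3.28) and Egr1 (-2.24), the acyl-CoA thioesterase Acot1 (-2.99), the complement gene C4b (-2.62), the lymphoid and macrophage factor Irf4 (-2.30) and the calcium pump inhibitor Sln (-4.34). The RNA genes Rn45s (-5.45), Rmrp (-7.55) and Rpph1 (-9.39, with 0 counts in the labelled knockout PBS library) and the gene Lars2 (-5.29) were in the same class. These differences of size were not tested by the rule that singled them out. edgeR's interaction test, which uses both wild type PBS libraries, called 0 genes, and DESeq2 called Lars2, Rmrp and Rpph1. Gm4841 was at 4.45 CPM with DKK1 and 1.91 CPM in PBS library 2, but at 1711 CPM in wild type PBS library 1.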

How the results depend on the processing

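The 361 genes higher and 131 lower by 2-fold became 360 and 131 with DESeq2 size factors, 369 and 125 with TMM over the 2 libraries alone, and 812 and 84 with total counts alone. A minimum of 20 counts gave 725 and 428, no minimum 2020 and 1597, and 500 counts 152 and 39, while a 4-fold threshold left 17 and 22. With wild type PBS library 1 as the reference the counts were 2450 and 1312, and against each wild type PBS library they were 280 and 31. Requiring genes to pass the size rule in the same direction in the labelled knockout pair too, an alternative chosen after seeing the data, left 38 and 23.

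DESeq2 called 4 genes in the test against both wild type PBS libraries and 3 in the interaction. edgeR called 0 in both, also without the low-count filter. It called 0 with DESeq2 size factors or only 5 libraries (without the 2 tumour libraries) in the first test, and 0 without Rn45s, Rmrp, Rpph1 and Lars2 in the interaction (chosen after seeing the data). Without wild type PBS replicate 1 or 2 a fit with 1 mean per group has no residual degree of freedom. An edgeR fit with DKK1 as 1 effect shared by both genotypes, added after seeing the data, called 172 genes without replicate 1 and 9 without replicate 2, where both the model and the libraries differ from the first test. No paired analysis was possible because only the 2 wild type PBS libraries carry numbers, and no label ties libraries to a shared animal.

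Of 104 named genes, 51 moved beyond their counting interval under total counts, where none past the size rule changed sign. DESeq2 size factors, TMM over 2 libraries, a prior count of 0.5 and leaving out the 4 RNA genes moved 0. Of 25 list medians, 5 changed sign under total counts and 8 with library 1. With library 1 as the reference 67 moved and 19 changed sign, to these log2 ratios: Chil3 1.83, Gpnmb 3.75, Mpeg1 1.05, Trem2 2.28, Ms4a6d 0.46, Adam8 0.59, Runx1 0.41, Sln 4.65, Timp1 1.21, Adam12 5.05, Ltbp2 3.45, Ifi47 -0.68, Ccr2 0.68, C3ar1 3.02, Itgb2 1.43, C4b 1.58, Hp 3.45, Mt2 1.19 and Mt1 0.27. The cause was not tested. With 1 library per side, depth limits ratios only through counting error, and differences between animals cannot be measured.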
